A study of Xenopus laevis and Petromyzon marinus with 21 samples.

Results

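Neural crest caps at stage 17 were compared with naive blastula caps at stage 9 in the frog Xenopus laevis, to see which blastula transcripts crest keeps at a like level and which it loses. Animal caps are explants of the animal pole of the embryo, cultured in salt solution. The blastula group was 3 libraries from uninjected caps of stage 9, labelled as animal pole stem cells. The crest group was 3 libraries from caps of stage 17 whose embryos had received wnt8a and chordin mRNA at the 2-cell stage, labelled as neural crest. These are 6 of the 21 samples of the series, chosen by their labelled stage and treatment. Uninjected caps of stage 17, labelled as epidermal, and injected caps of stage 13 are given beside some results. All these groups were of wild type genotype and held 3 libraries each. Stage and injection change together in this comparison, so by itself it does not separate time from treatment. By their labels, uninjected caps of stage 17 differ from the blastula group in stage only and from the crest group in treatment only. No group received either mRNA alone, so the separate parts played by wnt8a, by chordin and by the act of injecting were not tested. The p-values reflect how far libraries of a group vary beyond shifts shared by the letter a, b or c of their data column. That spread was estimated over all 18 frog libraries together. The labels name no clutches, so that variation may be technical only.

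A blastula animal cap is pluripotent: its cells can form derivatives of each germ layer, and they still carry much RNA that the mother laid down in the egg. Factors of the Pou5f3, SoxB1, Ventx and Klf families are known as regulators of this state in the frog. Neural crest is a vertebrate cell population that arises at the border of the neural plate, migrates, and forms pigment cells, peripheral neurons, glia and facial skeleton. Wnt signals together with lowered BMP signalling, which chordin brings about by binding BMP ligands, are known to turn animal caps toward neural plate border and crest. Left alone, caps form epidermis.

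RNA was selected by poly(A) and counted per gene. Tail length was not measured, so a change in RNA amount and a change in poly(A) capture cannot be told apart. The 6 libraries held 15658275 to 22887369 gene counts and detected 26819 to 29097 genes. Levels are given as CPM, counts per 1000000 counts of the library total after scaling by TMM, which assumes that most genes do not change. TMM factors were 1.38 to 1.40 in blastula and 0.938 to 0.996 in crest libraries, and the 10 most abundant genes took 2.51 to 3.46% of blastula counts and 7.30 to 9.06% of crest counts. Xenopus laevis carries most genes as copies on a long and a short chromosome, written .L and .S, and each copy was tested as a gene of its own. Reads that matched several places were not counted, so levels of near-identical copies are uncertain. The 5 rows of wnt8a and chrd, which injected RNA can fill, were set aside.

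The labels were checked against marker lists. The 54 tested crest markers summed to 500 to 652 CPM in the blastula libraries and to 8597 to 9161 CPM in the crest libraries, against 1838 to 2019 CPM in epidermal caps. The crest regulators sox10.L and sox10.S were at 0 counts in the blastula libraries and at 228, 252 and 269 CPM and 345, 337 and 345 CPM in crest libraries a, b and c. Epidermal markers were also present in crest caps. The 67 tested epidermal genes summed to 4204 to 4770 CPM in blastula caps, to 68834, 50696 and 50394 CPM in crest libraries a, b and c, and to 112478 to 146600 CPM in epidermal caps. Crest library a stood highest, and its ionocyte markers summed to 563 CPM against 366 and 352 CPM in b and c. Multiciliated markers summed to 242 to 296 CPM in crest caps, against 384 to 437 CPM in the blastula and 3554 to 4484 CPM in epidermal caps. Mesoderm markers summed to 16.2 to 39.4 CPM in crest, 104 to 145 CPM in blastula and 282 to 355 CPM in epidermal caps. Endoderm markers summed to 132 to 235 CPM in crest, 28.2 to 33.4 CPM in blastula and 126 to 179 CPM in epidermal caps. The endoderm copies did not move together. Of 25 tested 10 were higher and 8 lower. The largest part of the crest sum was apoc1.L, at means of 1.33 CPM in blastula and 99.9 CPM in crest caps. The endoderm factor sox17b.1.L fell from 11.8 to 0.122 CPM, and the other sox17 copies were lower too. Placode markers summed to 847 to 1003 CPM in crest, 70.7 to 82.0 CPM in blastula and 620 to 891 CPM in epidermal caps. The largest part of the crest sum was sox9.S, which is also a crest marker. Its means were 4.84 CPM in blastula, 424 CPM in crest and 2.01 CPM in epidermal caps. In crest against epidermal caps 10 of 32 placode copies were higher, 10 lower and 12 not passed. Neural plate markers summed to 1130 to 1566 CPM in crest, 1468 to 1689 CPM in blastula and 194 to 262 CPM in epidermal caps. Of these other lists, 2 of 35 mesoderm, 1 of 32 ionocyte, 1 of 49 multiciliated, 1 of 25 endoderm and 1 of 65 neural plate markers were at 0 in all 3 crest libraries, and no epidermal or placode markers. In bulk caps, fewer cells of a type and less RNA per cell cannot be told apart, and the part of other cell types in the results below was not tested.

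Most of the transcriptome differed between the groups. Of 24494 genes tested with edgeR's quasi-likelihood test, 9652 (39.4%) were higher and 9293 (37.9%) lower in crest caps at a Benjamini-Hochberg adjusted p under 0.05, together 77.3%. By 2-fold or more 32.7% were higher and 30.6% lower, and 12.2% met the equivalence rule given below. The libraries of the groups did not overlap in 75.8% of genes. With library totals in place of TMM the split was 7738 higher and 11505 lower, or 40.2% of calls higher in place of 50.95%, and the median log2 change of all genes moved by -0.51. A blastula transcript was taken as a gene with a mean of at least 10 CPM in the uninjected stage 9 libraries, which held for 11571 genes, all of them among the genes tested. Each was called kept where an equivalence test placed its change within 2-fold in both directions at an adjusted p under 0.05. It was called lowered or raised where it changed by 2-fold or more at an adjusted p under 0.05, and lost where it was lowered to a mean under 1 CPM.

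By these rules 2700 blastula transcripts (23.3%) were kept, 1968 (17%) raised, 4386 (37.9%) lowered and 551 of those (4.76%) lost, with 2517 between these classes. Of the kept transcripts 905 still differed by less than 2-fold at an adjusted p under 0.05, 438 higher and 467 lower. The median log2 change of blastula transcripts was -0.49, against 0.03 over all genes tested, but these transcripts were taken by their stage 9 level, and such a choice by itself leans toward falls. The class medians that follow describe the classes, whose rules used the same libraries. Kept transcripts had a median of 41.6 CPM in the blastula and 40.9 CPM in crest caps. Lost transcripts had a median of 19.9 CPM in the blastula, 0.931 CPM in injected caps of stage 13 and 0.370 CPM in crest caps. Transcripts that were lowered but not lost went from a median of 40.7 CPM to 10.2 CPM at stage 13 and 8.87 CPM at stage 17. Raised ones went from 25.3 CPM to 103 and 102 CPM. The kept class depends on the margin, and within 1.5-fold none was kept by the equivalence test (smallest adjusted p = 0.0626, with 1481 at an unadjusted p under 0.05). It also depends on the scaling: with library totals 2416 were kept, and 1296 of them were among the 2700. Among named genes, 18 that had not passed by TMM passed as lower with library totals, which includes wasf3.L, bambi.S, gas8.S, ctnnb1.S, cdh3.L, ezh2.L, hdac1.L and mcm2.L below. All 551 lost transcripts were also among the 742 lost under library totals. Library totals raise every blastula level and lower every crest level, so this overlap was nearly fixed beforehand and is no support.

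**Figure D1:**
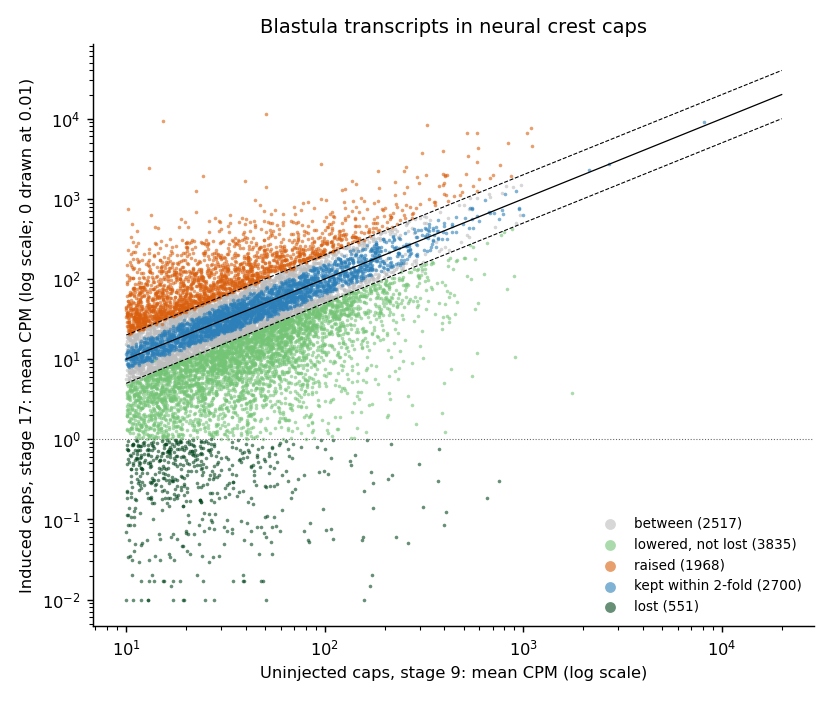
Each point is one of 11571 blastula transcripts, with its mean CPM in 3 uninjected stage 9 libraries on the x axis and in 3 crest libraries on the y axis, both on log scales; dashed lines mark 2-fold and the dotted line 1 CPM. The 2700 kept transcripts lie along the diagonal and the 551 lost ones below 1 CPM.

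The share of reads in each class is given as a description only, since the class rules used these same libraries. Transcripts that were lowered but not lost took 33.5 to 34.2% of gene counts in the blastula libraries and 5.74 to 6.15% in the crest libraries. Kept transcripts took 26.5 to 27.8% and 18.5 to 19.998%. Raised transcripts took 13.1 to 14.1% and 43.5 to 43.6%, and genes under the blastula level took 4.01 to 4.35% and 16.5 to 18.8%. Lost transcripts went from 2.62 to 3.09% of counts to at most 0.0236%.

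Regulators of pluripotency were more often lowered than raised, as were blastula transcripts at large, and a larger share of them was lost. Of 40 blastula transcripts in the list 19 were lowered (47.5%, against 37.9% of all blastula transcripts), 10 of them lost (25%, against 4.76%). A further 10 were raised (25%, against 17% of all), 3 kept and 8 between, with a median log2 change of -0.93. The POU factor pou5f3.3.L, one of the frog counterparts of mammalian Oct4, stood at 770, 506 and 693 CPM in blastula libraries a, b and c and at 0.181, 0.203 and 0.176 CPM in crest libraries a, b and c. Its relative pou5f3.2.L stood at 648, 723 and 879 CPM in the blastula and at 0.302, 0.253 and 0.351 CPM in crest. Neither gene's groups overlapped, and the log2 changes were -11.72 ± 0.32 (SE, adjusted p = 2.75e-12) and -11.31 ± 0.66 (adjusted p = 2.4e-09). The short copies were lost as well, with log2 changes of -12.06 for pou5f3.3.S and -8.97 for pou5f3.2.S. The fall was mostly complete at stage 13 for pou5f3.3.L, at 0.941 CPM, while pou5f3.2.L was still at 33.2 CPM there.

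Other animal pole regulators were lost beside them. The forkhead factor foxi2.S, an activator of ectodermal genes, stood at 185, 127 and 163 CPM in the blastula and at 0 in each crest library, at least 3161-fold lower with 3 counts over the group taken as the floor. The Nodal co-receptor gene tdgf1.3.L went from 142, 176 and 188 CPM to 0, 0 and 0.0439 CPM, a ratio of 9852 (95% counting interval 1768 to 389167). The Krüppel-like factor klf2.L went from 160, 172 and 142 CPM to 0, 0.203 and 0.483 CPM, a log2 change of -9.33 ± 0.73 (adjusted p = 4.29e-08). For these genes too every crest library lay below every blastula library. The SoxB1 gene sox3.S, which keeps ectoderm from differentiating, was lowered but not lost, from 508, 499 and 651 CPM to 3.69, 6.69 and 8.12 CPM (log2 change -6.49 ± 0.44, adjusted p = 9.51e-09).

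**Figure D2:**
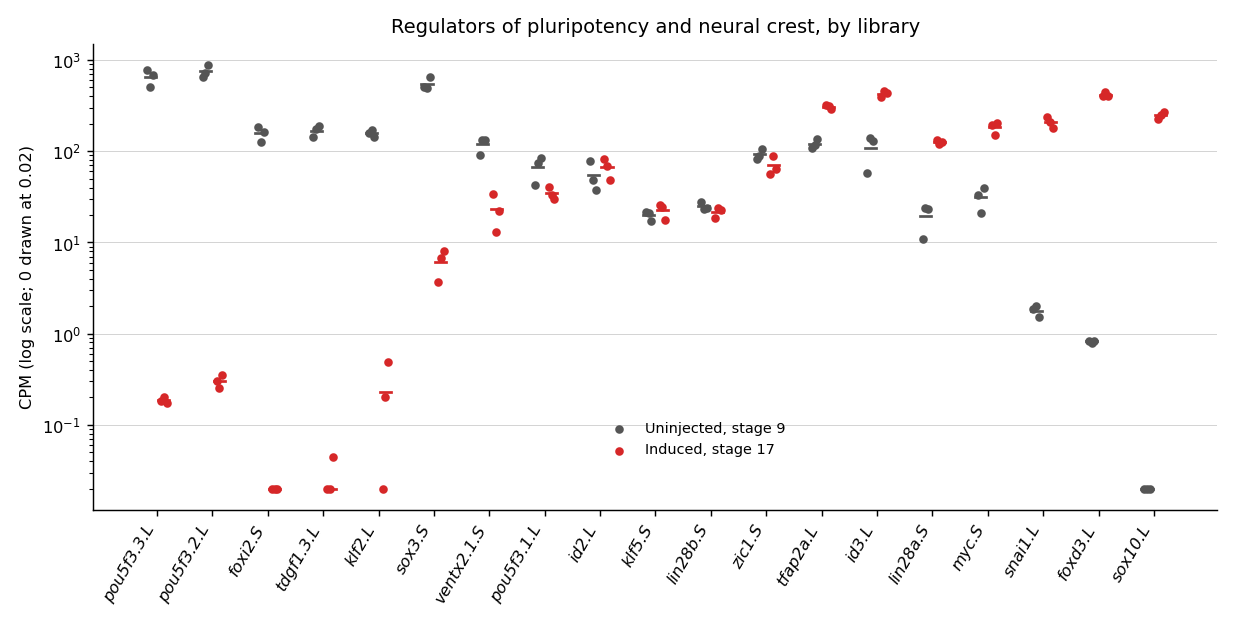
CPM on a log scale for 19 regulator copies in each of 3 uninjected stage 9 libraries (grey) and 3 crest libraries (red), with bars for the means and values of 0 drawn at 0.02. The genes on the left fall, most of them to near 0, with sox3.S and ventx2.1.S falling less far. Those in the middle, from pou5f3.1.L to zic1.S, overlap or nearly so, and those on the right are higher in crest.

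The pou5f3.1 copies were not lost. The long copy pou5f3.1.L stood at 42.7, 73.5 and 84.2 CPM in the blastula and at 41.0, 33.5 and 30.2 CPM in crest, lower by a log2 change of -0.94 ± 0.35 (adjusted p = 0.0235). The lowest blastula library was 42.7 CPM and the highest crest library 41.0 CPM, so the groups nearly met. At stage 13 the same copy was at 599 CPM in injected and 1295 CPM in uninjected caps, so its stage 17 level was not a steady one. The short copy pou5f3.1.S was lowered, from a mean of 52.9 to 24.2 CPM (log2 change -1.11 ± 0.33, adjusted p = 0.00748). Without blastula library b, blastula library c or crest library c, pou5f3.1.L no longer passed, at log2 differences of -0.61, -0.87 and -0.71.

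The Ventx genes, targets of BMP signalling that hold ectoderm in an uncommitted state in the frog, passed the test in some copies and not in others, and differences between copies were not tested. The long copy ventx2.2.L stood at 12.42, 32.8 and 41.7 CPM in the blastula and at 33.7, 17.3 and 28.2 CPM in crest, with overlapping groups and a log2 difference of -0.05 ± 0.72, too wide for an equivalence call. The short copy ventx2.2.S fell from 116, 203 and 166 CPM to 28.8, 13.4 and 25.6 CPM (log2 change -2.77 ± 0.43, adjusted p = 4.18e-05). The neighbouring ventx2.1.S also fell, by 2.36 on the log2 scale, while ventx2.1.L stood at means of 51.9 and 27.9 CPM and did not pass (adjusted p = 0.32).

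Of the 40 pluripotency blastula transcripts, 3 were kept. The Krüppel-like factor klf5.S stood at 21.4, 20.9 and 17.4 CPM in the blastula and at 26.1, 24.4 and 17.6 CPM in crest. The helix-loop-helix inhibitor id2.L stood at 78.2, 48.0 and 37.5 CPM and at 82.5, 68.6 and 49.0 CPM. The RNA-binding protein gene lin28b.S, a brake on let-7 maturation, stood at 27.9, 23.1 and 23.6 CPM and at 18.5, 23.9 and 22.7 CPM. All 3 overlapped between the groups, with equivalence adjusted p = 0.000329, 0.0173 and 0.0433. Of the 3, 2 were also kept with library totals. Of their other copies, klf5.L and lin28b.L were raised by 2.01 ± 0.18 and 1.90 ± 0.195 on the log2 scale, and id2.S was between the classes.

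Factors named as shared by blastula and crest were mostly higher in crest over all tested copies, but not among those that were blastula transcripts. Of 28 copies of this list, 18 were higher, 8 lower and 2 not passed, with a median log2 change of 1.43. Among all genes 39.4% were higher and 37.9% lower. The copies under the blastula level had little room to fall. Of the list's 20 blastula transcripts 8 were raised (40%, against 17% of all blastula transcripts) and 7 lowered (35%, against 37.9%). A further 5 were between and 0 met the kept rule, against 23.3% of all blastula transcripts. The median log2 change of the 20 was 0.28. These genes were chosen by earlier work as shared between the states, so the list is not independent evidence of its direction. The BMP effector id3.L stood at 57.2, 139 and 130 CPM in the blastula and at 395, 456 and 432 CPM in crest (log2 change 2.05 ± 0.38, adjusted p = 0.000229). The proto-oncogene myc.S went from 33.4, 21.2 and 39.6 CPM to 196, 152 and 206 CPM (log2 change 2.57 ± 0.26). The ectodermal and border factor tfap2a.L went from 109, 117 and 135 CPM to 317, 313 and 293 CPM (log2 change 1.34 ± 0.165). In each of these genes all crest libraries lay above all blastula libraries. Rises were also seen in the E-protein gene tcf3.L, from a mean of 77.1 to 166 CPM, and in the short copy of the Ets factor ets1.S, from 63.6 to 179 CPM. The long copy ets1.L was between the classes, at 61.3 and 94.1 CPM, with 111 CPM in epidermal caps. The 8 lower copies were the 4 lost Pou5f3 copies, both pou5f3.1 copies, ventx2.1.S and ventx2.2.S. In crest against epidermal caps 14 of the 28 copies were higher, 4 lower and 10 not passed, where 25.5% of all genes were higher and 26.3% lower. Among those not passed was id3.L, at 296 CPM in epidermal caps (edgeR adjusted p = 0.26).

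A border factor and a Wnt receptor that the blastula expressed were present in crest caps and low in epidermal ones, although neither met the kept rule. The zinc finger gene zic1.S stood at 82.7, 89.5 and 105 CPM in the blastula and at 56.9, 89.1 and 64.1 CPM in crest, with overlapping groups and a log2 difference of -0.40 ± 0.32 that passed neither test. With library totals zic1.S was lower, by a log2 difference of -0.90 (adjusted p = 0.017). Injected caps of stage 13 held 388 CPM. Its mean in epidermal caps was 0.0652 CPM, and the log2 ratio of crest to epidermal caps was 10.03 (adjusted p = 3.15e-08). The Frizzled receptor fzd7.L fell modestly, from 198, 195 and 230 CPM to 130, 120 and 129 CPM (log2 change -0.71 ± 0.17, adjusted p = 0.00131), without overlap between the groups. Its mean in epidermal caps was 3.31 CPM. The long copy zic1.L was raised, from a mean of 28.1 to 135 CPM (log2 change 2.26 ± 0.31).

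Most transcripts of the oocyte program were lower in crest caps, where 37.9% of all genes were lower and 39.4% higher. Of 64 tested copies in a list of oocyte genes, 54 were lower, 7 higher and 3 not passed, with a median log2 change of -3.96. Among its 55 blastula transcripts 45 were lowered, 22 of them lost (40% against 4.76% of all blastula transcripts), 2 kept, 5 raised and 3 between. The linker histone of the egg, h1-8.L, went from 86.9, 180 and 203 CPM to 0, 0.0507 and 0.132 CPM (log2 change -11.07 ± 0.40, adjusted p = 1.66e-11). The cytoplasmic polyadenylation factor cpeb1.L, which controls maternal mRNA translation, went from 155, 45.3 and 92.7 CPM to 0, 0.101 and 0.307 CPM (log2 change -9.14 ± 0.63). The translational repressor patl2.L went from 84.9, 92.9 and 126 CPM to 0.121, 0.101 and 0 CPM (log2 change -10.41 ± 0.38). The groups lay far apart for these genes. The kept members were cnot6l.S, a subunit of the deadenylase complex, at means of 43.0 and 45.4 CPM, and the ubiquitin ligase trim36.S, at 12.3 and 16.4 CPM, and both were also kept with library totals.

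Where the egg uses its own form of a protein, the egg form fell and the somatic form in most cases did not. Pairs of oocyte and somatic forms were listed together, and of 23 oocyte copies 20 were lower, 2 higher and 1 not passed. Of 28 somatic copies 18 were higher, 7 lower and 3 not passed. Among all genes 37.9% were lower and 39.4% higher. The meiotic and early embryonic cyclin ccna1.L went from 457, 279 and 375 CPM to 0.302, 0.304 and 0.307 CPM (log2 change -10.21 ± 0.35), and the somatic ccna2.L was also lowered, but to 51.4, 66.3 and 72.2 CPM from 410, 439 and 499 CPM (log2 change -2.83 ± 0.20). The egg lamin lmnb3.L fell from 240, 202 and 202 CPM to 11.1, 9.99 and 11.1 CPM (log2 change -4.32 ± 0.16). Its somatic counterpart lmnb1.L stood at 493, 565 and 601 CPM in the blastula and at 542, 577 and 540 CPM in crest, a kept transcript with overlapping groups (log2 difference 0.00 ± 0.12, equivalence adjusted p = 0.000164). The short copy lmnb1.S was lower, at means of 402 and 247 CPM (log2 change -0.70 ± 0.11). Of the other somatic lamins, lmnb2.L was lower and lmnb2.S higher within the kept rule, by log2 changes of -0.54 and 0.47, and lmna.L fell from a mean of 1.40 to 0.0686 CPM.

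Other translation and mitosis regulators of the list moved in the same directions, with exceptions given below. The mitotic inhibitor wee2.S went from a mean of 217 ± 26.0 (SD, n = 3) to 0.886 ± 0.803 CPM, while wee1.L rose from 11.7 ± 0.481 to 80.5 ± 13.5 CPM. The Y-box protein gene ybx2.L fell from 49.5 to 10.97 CPM and ybx1.S rose from 593 to 4249 CPM. The poly(A) binding protein gene pabpc1l.L fell from 53.9 to 10.4 CPM and pabpc1.S rose from 582 to 2884 CPM. In these Y-box and poly(A) binding protein pairs the somatic copy was already the more abundant in the blastula. The histone chaperone npm2.L fell from 49.3 to 3.62 CPM. Exceptions were eif4e1b.S, an oocyte cap-binding protein gene, which was higher by 0.80 ± 0.11 on the log2 scale, and eef1a1o.S, the oocyte elongation factor, which rose from 849, 1210 and 1215 CPM to 8560, 7265 and 7008 CPM (log2 change 2.82 ± 0.20). The summed level of the oocyte list was higher in crest caps, at 7628 to 9282 CPM against 4890 to 5447 CPM, most of it eef1a1o.S, although most members fell.

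**Figure D3:**
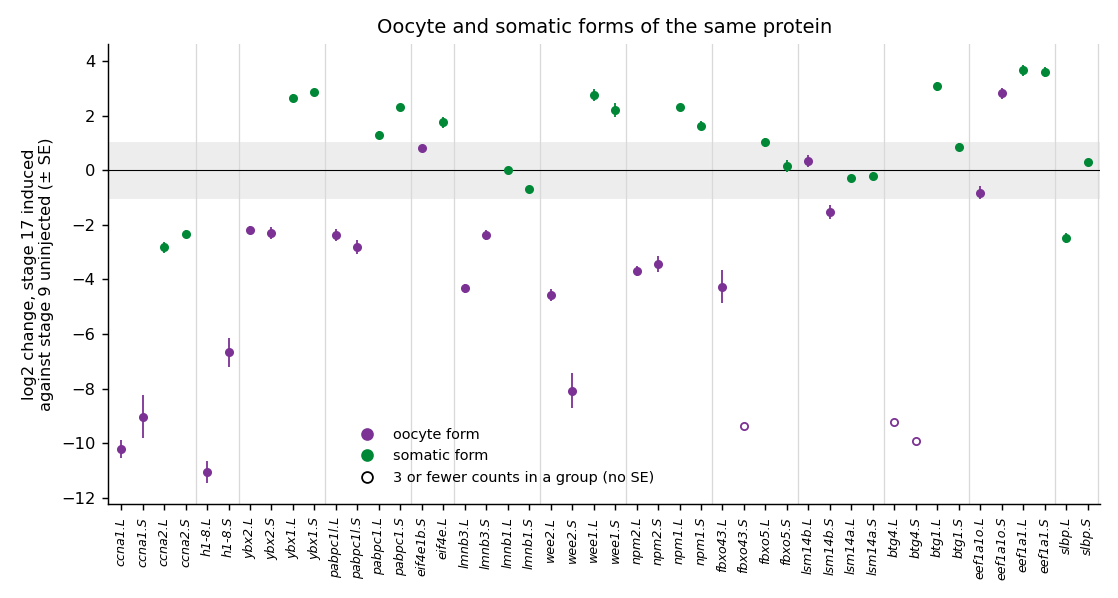
Log2 change from uninjected stage 9 to crest caps, with its standard error, for copies of oocyte forms (purple) and somatic forms (green) of the same protein, with the grey band marking 2-fold. Lamin genes other than lmnb1 and lmnb3 are not drawn. Most oocyte forms lie below the band, with eif4e1b.S, eef1a1o.S and lsm14b.L (not passed) above 0, and most somatic forms drawn lie in or above it, with both ccna2 copies and slbp.L below.

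Transcripts in a list for the vegetal cortex and germ plasm were mostly lower. The list summed to 1440 to 1794 CPM in blastula caps and to 431 to 439 CPM in crest caps. Of 36 tested copies 22 were lower, 8 higher and 6 not passed (median log2 change -2.22), where 37.9% of all genes were lower and 39.4% higher. Of the 17 that were blastula transcripts 15 were lowered (88.2%, against 37.9% of all blastula transcripts), 6 of them lost (35.3%, against 4.76%), 1 raised and 1 between. The Nodal and Wnt antagonist dand5.S went from 337, 279 and 326 CPM to 0.0604, 0.101 and 0.264 CPM (log2 change -10.97 ± 0.33, adjusted p = 7.73e-12). The T-box factor vegt.L, which specifies endoderm and mesoderm, went from 60.2, 56.4 and 50.5 CPM to 0.181, 0.253 and 0.878 CPM (log2 change -7.02 ± 0.84). The lipid droplet protein gene plin2.S went from 289, 197 and 299 CPM to 3.08, 3.95 and 3.47 CPM (log2 change -6.19 ± 0.26). No groups overlapped among these. The germline helicase ddx4.L fell less, to 38.4, 28.7 and 27.4 CPM from 87.3, 93.5 and 112 CPM (log2 change -1.64 ± 0.17). The raised member was the motor protein gene kif4a.S, from a mean of 36.6 to 94.6 CPM, which mitotic cells also use.

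Transcripts of the cell cycle machinery, which the rapidly dividing blastula uses, included lowered, raised and kept members. Of 92 blastula transcripts in the cell cycle list 48 were lowered (52.2%, against 37.9% of all blastula transcripts) and 5 of those lost. A further 17 were raised, 14 kept and 13 between. The shares lost (5.43%) and raised (18.5%) were near those of all (4.76% and 17%), and 15.2% were kept against 23.3% of all. Of the 14 kept 7 were also kept with library totals. The mitotic cyclin ccnb1.S went from 460, 341 and 426 CPM to 0.181, 0.101 and 0.0878 CPM (log2 change -11.66 ± 0.34). Cyclin ccnb2.S, another partner of Cdk1, fell to 41.5, 54.5 and 59.3 CPM from 542, 388 and 467 CPM (log2 change -3.16 ± 0.185). The origin licensing factor cdc6.S fell from 406, 416 and 470 CPM to 5.32, 6.79 and 10.4 CPM (log2 change -5.87 ± 0.20). Geminin, the inhibitor of licensing, fell too, with a log2 change of -3.69 ± 0.24 for gmnn.S.

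Other parts of the replication machinery were kept or exchanged. The helicase subunit mcm2.L stood at 234, 230 and 233 CPM in the blastula and 176, 204 and 209 CPM in crest, a kept transcript whose groups did not overlap. The sliding clamp pcna.S stood at 45.4, 46.2 and 28.4 CPM and at 36.0, 46.7 and 38.7 CPM (log2 difference 0.04 ± 0.16). The mitotic kinase plk1.S stood at 249, 152 and 190 CPM and at 148, 183 and 170 CPM. The last pair overlapped between groups and were kept. The maternal helicase subunit mcm6.L fell from 124, 128 and 125 CPM to 8.46, 10.4 and 9.79 CPM (log2 change -3.71 ± 0.21), and mcm6.2.S, the zygotic gene of the same subunit, rose from 12.3, 12.6 and 11.99 CPM to 176, 215 and 227 CPM (log2 change 4.06 ± 0.13). The topoisomerase top2a.L rose from a mean of 110 ± 6.96 to 612 ± 49.8 CPM.

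Factors known to limit replication origin firing in the early frog embryo, listed separately, went in several directions. Of the 8 blastula transcripts of the list 4 were lowered, 3 kept and 1 raised. Of all blastula transcripts 37.9% were lowered, 23.3% kept and 17% raised, and a list this small gives no result from such counts. The kinase activator dbf4b.L fell from 184, 176 and 190 CPM to 33.7, 31.4 and 46.5 CPM (log2 change -2.32 ± 0.15), and rif1.S, which recruits a phosphatase that opposes origin firing, fell from 382, 364 and 379 CPM to 47.7, 52.9 and 49.6 CPM (log2 change -2.91 ± 0.115). The treslin gene ticrr.L was raised, from a mean of 14.6 to 58.1 CPM. Both tested copies under the blastula level were higher as well. The means of topbp1.L were 7.64 and 61.3 CPM (log2 change 3.02) and those of ticrr.S 7.17 and 47.1 CPM (log2 change 2.73). The checkpoint kinase copies chek1.L and chek1.S and the helicase gene recql4.L were kept, with log2 differences of 0.18, 0.02 and 0.02, and 1 of these 3 was also kept with library totals.

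With TMM scaling, chromatin regulators were kept in larger share than blastula transcripts at large. Of 78 blastula transcripts in the chromatin list 34 (43.6%, against 23.3% of all) were kept, 17 lowered, 13 raised and 14 between. Of the 34 only 12 were also kept with library totals, beside 1296 of all 2700 kept transcripts, so most of these 34 calls depend on the scaling. This overlap does not show whether the larger share holds under library totals. Over the 93 tested copies the median log2 change was 0.07 by TMM and -0.44 by library totals, so the list has no direction that holds under both scalings. The histone deacetylase hdac1.L stood at 342, 378 and 394 CPM in the blastula and at 308, 332 and 339 CPM in crest. The Polycomb methyltransferase ezh2.L stood at 147, 151 and 153 CPM and at 138, 145 and 145 CPM, and its partner suz12.L at 192, 178 and 202 CPM and at 149, 141 and 153 CPM. For all 3 genes every crest library was below every blastula library, by less than 2-fold, with log2 differences of -0.19, -0.08 and -0.36 and equivalence adjusted p = 0.000605, 0.000389 and 0.000346. The histone chaperone rbbp4.L, a subunit of several such complexes, stood at means of 77.9 and 85.3 CPM and the demethylase kdm1a.L at 136 and 124 CPM. The remodelling ATPase smarca4.S stood at 480, 306 and 414 CPM and at 479, 437 and 448 CPM.

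Among the 17 lowered chromatin transcripts were both copies of dnmt1, uhrf1 and hells. The maintenance methyltransferase dnmt1.L fell from 306, 167 and 231 CPM to 41.3, 47.7 and 57.5 CPM (log2 change -2.26 ± 0.24). Its partner uhrf1.S fell from 214, 234 and 216 CPM to 50.4, 41.1 and 49.0 CPM (log2 change -2.24 ± 0.18), and the remodeller hells.L from a mean of 159 to 18.4 CPM. Their other copies fell by 1.05, 1.83 and 1.39 on the log2 scale for dnmt1.S, uhrf1.L and hells.S. The histone chaperone nasp.S fell from 571, 565 and 626 CPM to 11.4, 14.7 and 9.44 CPM (log2 change -5.67 ± 0.35). In the other direction, the demethylating dioxygenase tet3.S, under the blastula level at 5.30, 1.49 and 2.83 CPM, reached 72.4, 89.4 and 73.3 CPM (log2 change 4.70 ± 0.50). The remodeller chd7.S, known from human disease as a crest regulator, rose from a mean of 142 to 332 CPM.

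Of 12 blastula transcripts in the cadherin and catenin list 6 (50%, against 23.3% of all) were kept, 2 lowered, 2 raised and 2 between, and 4 of the 6 were also kept with library totals. Over all 39 tested copies 20 were higher and 9 lower, where 39.4% of all genes were higher and 37.9% lower. Beta-catenin ctnnb1.S, which links cadherins to actin and relays Wnt signals, stood at 642, 713 and 685 CPM in the blastula and at 659, 677 and 637 CPM in crest. Alpha-catenin ctnna1.S stood at 608, 701 and 706 CPM and at 775, 622 and 646 CPM. The maternal cadherin of the frog, cdh3.L, stood at 181, 211 and 248 CPM and at 185, 154 and 209 CPM. The groups overlapped for these 3 genes, with log2 differences of -0.05, 0.02 and -0.23. With library totals all 3 passed as lower, at -0.56, -0.49 and -0.74. The epithelial cadherin cdh1.S was raised from 17.2, 39.7 and 32.2 CPM to 588, 503 and 435 CPM (log2 change 4.15 ± 0.285) and stood at 1578 CPM in epidermal caps. The neural cadherin cdh2.L went from a mean of 0.0914 to 86.0 CPM (log2 change 9.87 ± 0.50).

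Wnt and BMP target genes that the blastula expressed included kept, lowered and raised members. Of 20 blastula transcripts in the Wnt target list 4 were kept (20%), 8 lowered (40%), 5 raised (25%) and 3 between, where 23.3% of all blastula transcripts were kept, 37.9% lowered and 17% raised. The kept and lowered shares are near those of all, so the counts are no result about the list. The feedback inhibitor axin2.S rose from 37.2, 41.3 and 36.5 CPM to 304, 308 and 321 CPM (log2 change 3.02 ± 0.37), whereas sp5l.L, an early Wnt target of the frog, fell from 166, 207 and 183 CPM to 2.12, 5.63 and 7.11 CPM (log2 change -5.24 ± 0.49). The kept members were the copies of ctnnb1 and of dact1, a modulator of Dishevelled. Of 21 blastula transcripts in the BMP target list 4 were kept (19.0%), 5 lowered (23.8%), 7 raised (33.3%) and 5 between, beside the same shares of all.

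In these libraries selected by poly(A), transcripts of ribosomal protein genes rose as one group, and whether their poly(A) capture changed was not tested. Of 140 tested ribosomal protein copies 139 were higher, where 39.4% of all genes were, and rps27l.L did not pass. Of 112 that were blastula transcripts 112 were raised, against 17% of all blastula transcripts. Log2 changes of the copies named by size ran from 1.40 ± 0.14 for rps18.L to 5.34 ± 0.31 for rpl8.L, whose level went from 8.64, 9.29 and 3.58 CPM to 292, 277 and 291 CPM. With library totals 139 were higher and 1 lower. Summed, the list went from 3274 to 4351 CPM to 33845 to 35333 CPM, and epidermal caps held 26838 to 31880 CPM. In crest against epidermal caps 12 copies were higher, 1 lower and 127 not passed, where 25.5% of all genes were higher and 26.3% lower.

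Of 62 blastula transcripts of the respiratory chain 24 (38.7%, against 23.3% of all) were kept, 16 raised, 11 lowered and 11 between, and 16 of the 24 were also kept with library totals. Over all 125 tested respiratory chain copies 74 were higher and 24 lower, or 62 and 39 with library totals. By TMM 39.4% of all genes were higher and 37.9% lower. Of 20 blastula transcripts of glycolysis 14 (70%, against 37.9% of all) were lowered, 1 kept, 2 raised and 3 between. The difference between these lists was not tested. Glucose phosphate isomerase gpi.L fell from 139, 93.9 and 113 CPM to 0.967, 1.37 and 1.67 CPM (log2 change -6.37 ± 0.27). Phosphoglycerate kinase pgk1.L fell from 79.2, 61.1 and 64.0 CPM to 2.78, 2.74 and 2.64 CPM (log2 change -4.63 ± 0.21), and pyruvate kinase pkm.L from a mean of 222 to 15.9 CPM. Crest libraries lay below blastula libraries in each. Hexokinase hk2.L was the kept member, at 55.7, 37.5 and 41.9 CPM and at 46.5, 39.2 and 44.8 CPM, though not with library totals.

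The most abundant kept transcripts are described next. Cytochrome oxidase subunit cox1.L, encoded in the mitochondrial genome, stood at 6566, 10507 and 7272 CPM in the blastula and at 8569, 10169 and 8466 CPM in crest (log2 difference 0.18 ± 0.12). Subunit cox3 stood at 2306, 3717 and 2119 CPM and at 2729, 2924 and 2463 CPM. The groups overlapped for both. These transcripts were read in libraries selected by poly(A). The TGF-beta and BMP signal transducer smad4.1.S stood at 978, 987 and 896 CPM and at 728, 925 and 667 CPM. The RNA helicase ddx5.L stood at means of 777 and 732 CPM and the splicing factor srsf5.S at 709 and 657 CPM. A level can also peak in between: the splicing factor srsf2.L had means of 805, 3444 and 1138 CPM at stages 9, 13 and 17. Across the 2700 kept transcripts, injected caps of stage 13 were 2-fold or more higher than the blastula in 263 and 2-fold or more lower in 298, at an adjusted p under 0.05. That comparison shares the stage 9 libraries with the main one, and over all genes it called 30.9% higher and 31.7% lower at the same thresholds.

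Genes that the embryo switches on around the blastula stage were lowered or raised, and none was kept. Of 28 blastula transcripts in the early zygotic list 16 were lowered (57.1%, against 37.9% of all blastula transcripts), 5 of them lost, 8 raised (28.6%, against 17% of all) and 4 between. The ectodermal forkhead gene foxi4.2.S fell from 102, 103 and 232 CPM to 1.45, 0.507 and 2.196 CPM (log2 change -6.77 ± 0.32). The ligand gene bmp7.2.L fell from 304, 446 and 464 CPM to 1.63, 1.01 and 1.01 CPM (log2 change -8.40 ± 0.38). The gastrula gene gs17.L fell from a mean of 145 to 5.37 CPM. Levels in every crest library were below every blastula library for these. The raised members included the grainyhead factors, known for epidermal differentiation, with grhl3.S going from 38.0, 72.7 and 52.0 CPM to 660, 387 and 461 CPM (log2 change 3.24 ± 0.26) and to 814 CPM in epidermal caps.

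**Figure D4:**
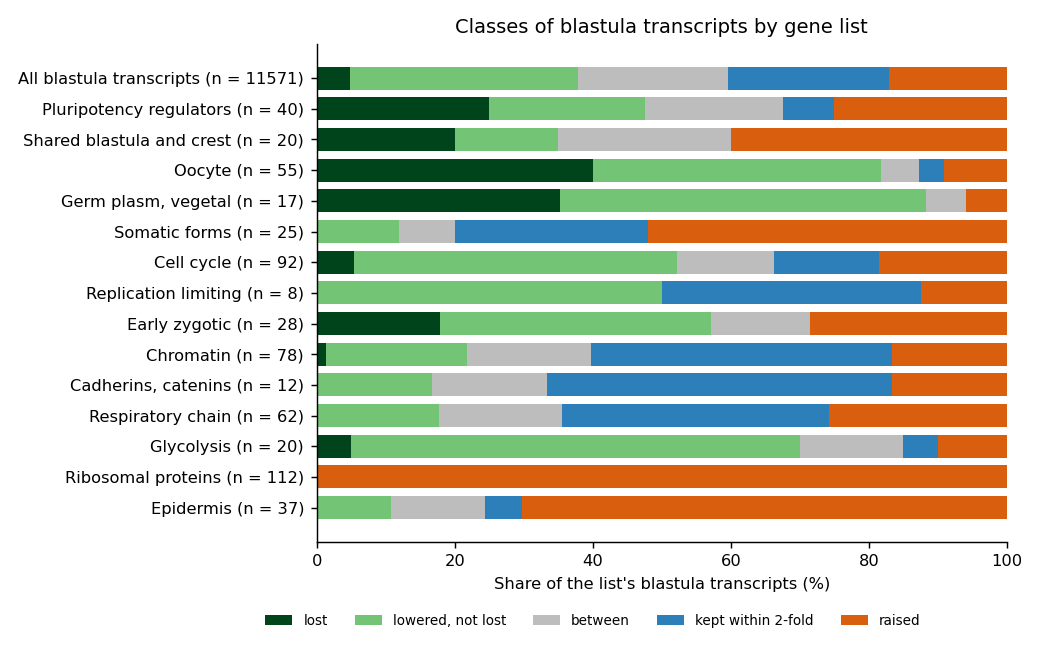
Share in percent of each list's blastula transcripts that were lost, lowered but not lost, between, kept or raised, with all 11571 blastula transcripts on top. Ribosomal protein genes are all raised, oocyte and germ plasm genes mostly lowered, and the kept part is 50% for cadherins and catenins, 43.6% for chromatin and 38.7% for respiratory chain genes, against 23.3% of all.

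Kept transcripts were then read in epidermal caps of stage 17. That comparison shares the crest libraries, and it called 25.5% of all genes higher and 26.3% lower in crest. Of the 2700 kept transcripts 1074 (39.8%) were higher in crest than in epidermal caps, 515 (19.1%) lower and 1111 not passed. The share higher was much the same among raised transcripts (38.6%) and those between the classes (35.9%), and of all 11571 blastula transcripts 3638 were higher and 2968 lower. A larger share higher than lower was thus not particular to kept transcripts. The 515 became 276 with library totals, 343 without the block on column letters, 314 without crest library b and 313 without crest library c. By 2-fold or more 332 were higher and 144 lower, where 14.9% and 18.8% of all genes were. By 4-fold or more 50 were higher and 15 lower, where 7.34% and 10.3% of all genes were. Of the 93 chromatin copies tested 58 were higher in crest and 3 lower, and of 108 cell cycle copies 57 were higher and 17 lower. The helicase subunit mcm2.L, at 232 and 196 CPM in blastula and crest caps, was at 51.6 CPM in epidermal caps (log2 crest over epidermal 1.93, adjusted p = 2.95e-07).

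The kept transcripts with the largest difference from epidermal caps were picked after their values were seen. The Wave complex gene wasf3.L, an organiser of actin, stood at 23.7, 24.6 and 28.9 CPM in the blastula, at 21.9, 28.8 and 23.6 CPM in crest, and at a mean of 1.19 CPM in epidermal caps. The corepressor rcor2.L, a partner of Kdm1a, stood at 124, 92.6 and 117 CPM, at 156, 137 and 180 CPM, and at 12.6 CPM. The Wnt pathway gene dact1.L stood at 106, 55.1 and 65.7 CPM, at 89.9, 78.4 and 87.5 CPM, and at 6.61 CPM. Blastula and crest libraries overlapped for wasf3.L and dact1.L, while for rcor2.L, which was kept within 2-fold, every crest library was above every blastula library. The higher call of rcor2.L ended with library totals (log2 difference 0.003, adjusted p = 0.989) and without the block on column letters (adjusted p = 0.0681). With library totals wasf3.L was lower than in the blastula, by a log2 difference of -0.56 (adjusted p = 0.00945). Crest over epidermal log2 values were 4.36, 3.65 and 3.73 (adjusted p = 3e-09, 2.17e-09 and 1.49e-08). Fibronectin fn1.S, a matrix protein on which crest migrates, stood at 528, 329 and 452 CPM, at 825, 278 and 360 CPM, and at 40.0 CPM, with crest library a above b and c. Fibronectin was lower at stage 13, at 167 CPM in injected caps, so its stage 17 level is not a steady one. Without crest library a its log2 difference from the blastula was -0.20 and it stayed kept, while without the block on column letters the equivalence adjusted p was 0.187.

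In the other direction, kept transcripts with higher levels in epidermal caps, also picked after their values were seen, included genes of cilia. The intraflagellar transport gene ift172.L stood at 15.2, 12.35 and 17.8 CPM in the blastula, at 16.7, 13.2 and 21.7 CPM in crest, and at 184 CPM in epidermal caps (log2 crest over epidermal -3.44, adjusted p = 5.23e-07). The dynein regulator gas8.S stood at 10.7, 11.98 and 13.01 CPM, at 10.6, 10.2 and 9.88 CPM, and at 101 CPM. The BMP pseudoreceptor bambi.S stood at 24.7, 23.1 and 29.7 CPM, at 28.9, 15.6 and 19.5 CPM, and at 165 CPM. With library totals gas8.S and bambi.S were lower in crest than in the blastula, at log2 differences of -0.72 and -0.81. Multiciliated markers moved with the first pair: 46 of 49 tested were lower in crest than in epidermal caps, 2 higher and 1 not passed. Of all genes 26.3% were lower and 25.5% higher in that comparison.

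Lost transcripts were mostly low in epidermal caps too. Of the 551, 382 had a mean under 1 CPM in epidermal caps and 26 had 10 CPM or more, while 290 were already under 1 CPM in injected caps of stage 13. Examples of the 26, chosen after their values were seen, were the carbonic anhydrase gene ca12.L, with means of 38.8, 0.585 and 187 CPM in blastula, crest and epidermal caps, and spag6.S, a gene of the ciliary central apparatus, with 15.1, 0.669 and 69.5 CPM. The copies ccna1.L and ccna1.S stood at 43.0 and 63.7 CPM in epidermal caps. The blastula level of ccna1.S rested on library a, at 649 CPM against 94.4 and 151 CPM.

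**Figure D5:**
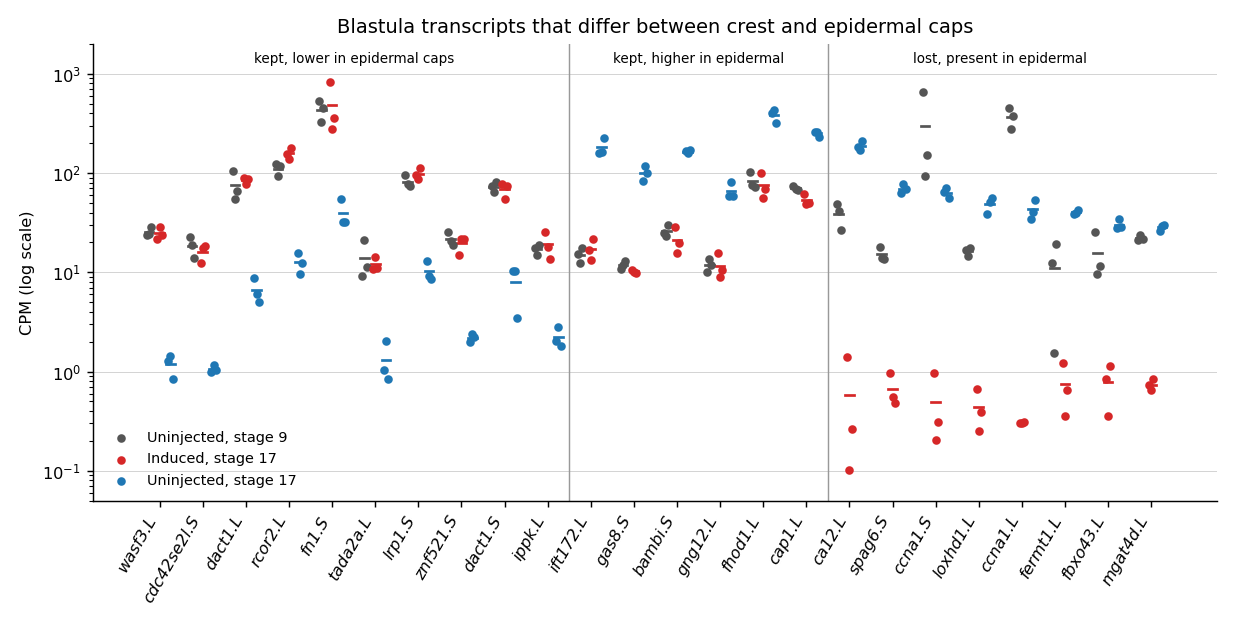
CPM on a log scale in uninjected stage 9 (grey), crest (red) and uninjected stage 17 (blue) libraries, 3 each with bars for means, for kept transcripts lower in epidermal caps, kept transcripts higher there, and lost transcripts present there. Grey and red points lie together in the first and second panels, and red points lie below grey and blue in the third.

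Most crest and border genes were higher in crest caps, where 39.4% of all genes were higher and 37.9% lower. Of 54 tested crest copies, 9 of them blastula transcripts, 45 were higher, 5 lower and 4 not passed (median log2 change 5.55). Of 38 border copies, 15 of them blastula transcripts, 31 were higher, 4 lower and 3 not passed (median 3.201). The forkhead repressor foxd3.L went from 0.835, 0.789 and 0.841 CPM to 406, 444 and 401 CPM (log2 change 9.01 ± 0.37), and epidermal caps held 0. The zinc finger repressor snai2.L went from 0.0726, 0.0464 and 0 CPM to 616, 708 and 553 CPM, a ratio of 14868 (95% counting interval 5087 to 72101). The SoxE gene sox8.L went from 0.617, 1.11 and 0.398 CPM to 888, 865 and 797 CPM (log2 change 10.25 ± 0.31). The border factor pax3.L rose in every library but unevenly, to 125, 401 and 211 CPM from 0.109, 0.0929 and 0.177 CPM. The bounds for sox10.L and sox10.S were at least 6018-fold and 8174-fold higher.

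Position genes and epidermal genes were mostly higher too, beside 39.4% of all genes higher and 37.9% lower. Of 29 tested Hox copies 27 were higher and none lower, with a sum of 0.508 to 1.06 CPM in the blastula and 228 to 315 CPM in crest. Of the 29 copies 0 were blastula transcripts, so a fall could hardly be seen. The Hox count is thus a description only, and the shares of all genes are no fair measure for it. Of the 27 calls, those of hoxa7.L, hoxa7.S, hoxb9.L and hoxc6.L rested on crest library c, at 4.22, 2.68, 0.791 and 4.44 CPM, with 0 counts in a and b, and 20 Hox copies were higher without that library. The hindbrain gene hoxb1.S had 0 counts in the blastula and 110, 156 and 109 CPM in crest, at least 2988-fold higher. Of 67 tested epidermal copies 50 were higher, 7 lower and 10 not passed. In crest against epidermal caps 44 of the 67 were lower, where 26.3% of all genes were. The keratin gene krt12.4.S went from 0.218, 0.371 and 0.310 CPM to 4212, 1668 and 2016 CPM, with 9347 CPM in epidermal caps, and otogl2.L from 0.254, 0 and 0.0442 CPM to 12678, 4641 and 7164 CPM, with 18095 CPM there. Crest library a was the highest in both, as in the summed epidermal level. The complement gene c3.L reached 4885, 3989 and 3934 CPM from 0.508, 0 and 0.487 CPM and stood at 81.9 CPM in epidermal caps.

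Copies of one gene were compared by class, and differences between copies were not tested. Both copies were blastula transcripts in 3028 gene pairs, and in 1461 of them (48.2%) both fell in the same class, with 645 pairs both lowered, 320 both kept and 320 both raised. In 290 pairs one copy was lowered and the other kept, in 209 one raised and the other kept, and in 65 (2.15%) one lowered and the other raised. Of the 1567 pairs in unlike classes 1003 had a copy between the classes. The ligand bmp4 had one copy raised and the other lowered: bmp4.L went from 16.1, 18.4 and 20.1 CPM to 43.2, 39.9 and 30.6 CPM (log2 change 1.06 ± 0.18), and bmp4.S from 14.6, 21.2 and 23.0 CPM to 1.21, 4.51 and 4.04 CPM (log2 change -2.60 ± 0.29). In epidermal caps both copies were high, at 125 and 92.1 CPM. Likewise the Polycomb gene ezh2.S was lowered from a mean of 47.5 to 18.15 CPM beside the kept ezh2.L, and the remodeller smarca5.S fell from 413 to 70.3 CPM beside the kept smarca5.L, at 217 and 162 CPM.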

How the data were processed

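The authors deposited raw counts of reads per gene, 1 column per library. Tools named in the submitters' processing notes are fastp 0.23.2, STAR 2.6.0 and HTSeq 1.99.2, and for the genome build, the annotation and the strand option the entry is "not given in the sources used here". HTSeq summary lines stayed out of library sizes. Reads in no gene made up 11.4 to 12.8% of reads, reads not unique 10.3 to 12.0% and ambiguous reads 0.198 to 0.508%. The 5 rows of wnt8a and chrd were removed. edgeR 4.0.16 (R 4.3.3) was fitted to the 18 frog libraries (TMM, filterByExpr by group, robust quasi-likelihood test, two-sided) with group and column letter as terms, and p-values were adjusted over 24494 genes. For equivalence, the offset was shifted by 2-fold up and down and the larger one-sided p was taken. Standard errors were derived from the F statistic. The fitting script was tested on simulated data. The column letters a, b and c are in no label. They were kept as a block because same-letter libraries deviated together, with correlations of 0.188, 0.216 and 0.195. Between different letters the values were -0.12 to -0.08. Deviations within a group of 3 balance each other, so these negative values follow from the positive ones and are no further support. Libraries of a group differed beyond counting error, with a chi-square per degree of freedom of 37.5 in blastula and 33.6 in crest libraries and a median coefficient of variation of 15.1% and 11.7%. Counting intervals (95%) and floors (3 counts over the group) cover counting error only. Alternatives were other scalings, no low-count filter, other margins and levels, no block, 6 libraries alone, injected rows kept, DESeq2 1.42.0, and each library left out. The comparison, the 26 gene lists and the tests were chosen with earlier results of these data known. Named genes are list members, the 12 lost transcripts with the largest fall, the 12 most abundant kept ones and the 10 most abundant gained ones (from under 1 CPM), leaving out provisional gene names, or genes said to be picked after their values were seen. The 3 lamprey libraries of the series were not used here. No sequences are printed, and a few list members are not reported here.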

Additional observations from a re-analysis of the deposited data

How the results depend on the processing

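Counts of higher and lower genes stayed within 1.5 times under every scaling, filter, block, tool and left-out library tried (7738 to 10452 higher and 8068 to 11505 lower). The number kept depends on the margin and the level: none was kept within 1.5-fold (1481 at an unadjusted p under 0.05, smallest adjusted p 0.0626), so 0 kept transcripts remained to compare with epidermal caps, and 1130 were kept at a blastula level of 50 CPM, 540 of them higher and 176 lower than in epidermal caps. At 1 CPM 6636 were lowered, 2234 lost and 4176 raised, and at 50 CPM 1642, 81 and 482. Below 0.5 CPM 341 were lost. Leaving out 1 library gave 2055 to 2126 kept, 4267 to 4381 lowered, 543 to 584 lost, 1919 to 1996 raised, 9424 to 9552 genes higher and 8942 to 9108 lower. Of the kept transcripts 733 to 923 were then higher than in epidermal caps and 313 to 358 lower, with 314 without crest library b and 313 without crest library c against 515 with all libraries. The cause was not tested.

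Without the replicate block 2132 transcripts were kept, 4377 lowered, 551 lost and 1940 raised, 9132 genes were higher and 8774 lower, and 807 kept transcripts were higher and 343 lower than in epidermal caps. With the 6 libraries alone 1813 were kept with the block and 1861 without it. DESeq2 called 556 lost.

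With library totals 276 kept transcripts were lower than in epidermal caps. Of 38 named transcripts with a kept call, 19 were also kept with library totals, 29 without the block and 27 to 31 with a library left out. With library totals 11 named genes with a difference above 0 turned negative, as log2 values of -0.43 for cnot6l.S, -0.33 for cox1.L, -0.47 for cox3, -0.49 for ctnna1.S, -0.48 for fn1.S, -0.33 for klf5.S, -0.51 for lmnb1.L, -0.038 for lmnb2.S, -0.47 for pcna.S, -0.39 for rbbp4.L and -0.00593 for srsf2.L. Another 18 named genes that had not passed were lower with library totals, by log2 values from -0.54 (hk2.L) to -1.04 (id2.S). They were bambi.S, cdh3.L, ctnnb1.S, ddx5.L, ezh2.L, gas8.S, hdac1.L, hk2.L, id2.S, kdm1a.L, lin28b.S, mcm2.L, plk1.S, rps27l.L, smad4.1.S, srsf5.S, wasf3.L and zic1.S. The higher calls of rcor2.L and hoxc6.L ended. The median of all genes moved by -0.51 with that scaling. With 1 library left out the fitted log2 changes, from counts near 0, ran from -1.56 to 6.35 for hoxa7.L, from -0.30 to 8.06 for hoxa7.S and from -3.29 to 4.82 for hoxc6.L. All 3 were lowest without crest library c and highest without crest library b. Depth limits levels near 1 count, which was worth 0.0363 to 0.0604 CPM in the 6 libraries.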

Other observations

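Markers of neighbouring tissues were counted over all tested copies, beside 39.4% higher, 37.9% lower and a median log2 change of 0.03 over all genes. Of 65 neural plate copies 35 were higher and 16 lower in crest caps (median log2 change 1.65), and of 32 placode copies 18 were higher and none lower (median 2.41). The other lists lay near or below the shares of all genes in both directions, so their counts too are given as values only. Of 25 endoderm copies 10 were higher and 8 lower (median -0.68), and of 35 mesoderm copies 13 were higher and 8 lower (median 0.45, and -0.07 with library totals). Of 32 ionocyte copies 10 were higher and 5 lower (median 0.73), and of 49 multiciliated copies 16 were higher and 17 lower (median 0.03, and -0.47 with library totals).

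Among neural plate genes that the blastula already held, the copies took different directions. The RNA-binding protein gene msi1.L, known from neural progenitors, rose from 15.8, 30.2 and 23.5 CPM to 114, 158 and 124 CPM (log2 change 2.52 ± 0.27, adjusted p = 5.5e-07). The LIM homeobox gene lhx5.S fell from 75.1, 94.9 and 88.7 CPM to 1.51, 0.862 and 2.46 CPM (log2 change -5.77 ± 0.62). Neither gene overlapped between groups. The notochord homeobox gene not.L was lost, from 65.6, 88.6 and 58.2 CPM to 0.181, 0.152 and 0.395 CPM (log2 change -8.18 ± 0.39, adjusted p = 1.5e-10).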
